A study of Rattus norvegicus with 18 samples.

Results

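The genes described here encode sodium, calcium and other cation channels, together with the CLC chloride channels and exchangers, on an array of neurobiology genes. They were taken by symbol, as every probe set that is no array control and carries a single gene symbol starting with Scn, Cacn, Cng, Hcn, Trp, Ryr, Itpr, P2rx, Asic or Clcn, with Nalcn left out. This gave 73 probe sets of 42 genes among 1263 probe sets of the array. Hcn, Trp and Ryr gave 0 members. The prefix Scn also takes in 3 subunits of the epithelial sodium channel, which is not voltage-gated, and the Clcn proteins move chloride, so the set is wider than cation channels.

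The cells were rat cortical astrocytes of type I. For 12 samples the growth surface carried the beta-amyloid fragment of residues 25 to 35. There were 3 such arrays each at 12 hours, at 1 day, at 3 days and at 5 days. The 6 control arrays came from cells on laminin and nitrocellulose that saw no peptide, and no time in culture is given for them. Controls 1 and 2 carry cerebral cortex as their source label, and the other 16 arrays carry type-I astrocytes. Their age, sex and strain are not stated in the labels. Nothing in the labels says that arrays of a group came from separate cultures. The p-values therefore measure only how these samples vary, and that variation may be technical.

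Astrocytes do not fire action potentials, and their fast signal is a rise of calcium inside the cell. Much of that calcium leaves internal stores through inositol trisphosphate (IP3) receptors, and some enters through voltage-gated calcium channels and ATP-gated P2X receptors. A voltage-gated channel has 1 large pore subunit, such as those of the Scn1a to Scn11a and Cacna1 genes, and smaller auxiliary subunits that carry it to the membrane and tune it, such as those of the Cacnb, Cacna2d and Scn2b genes. Acid-sensing channels open when the medium outside turns acid, cyclic nucleotide-gated channels are known from photoreceptors and olfactory neurons, and the CLC proteins include exchangers of endosomes and lysosomes.

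Values are linear signals per probe set and array, already scaled between arrays. The 2% trimmed mean lay between 502.1 and 502.6 on all 18 arrays. Signals under 11.3, the 10th percentile, were set to that floor before log2 was taken, and probe sets above 44.9 on at least 3 arrays were tested. Of the 1027 probe sets tested, 52 were channel probe sets, of 37 genes. They were 13 of 16 for voltage-gated sodium channels, 2 of 3 for epithelial sodium channels, 15 of 23 for voltage-gated calcium channels, 3 of 5 for IP3 receptors, 7 of 10 for P2X receptors, 3 of 3 for acid-sensing channels, 4 of 8 for cyclic nucleotide-gated channels and 5 of 5 for CLC proteins. A fold is a difference of mean log2 signals, given with its standard error (SE), and it understates changes near the floor. A probe set was called where limma's Benjamini-Hochberg adjusted p over all 1027 was under 0.05. Apart from the choice of the brightest probe set of a family for naming, levels of different probe sets are not compared, since probes differ in brightness. Precision is limited by how few arrays there are.

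Arrays stood apart in a way the groups do not give, as 2 clusters defined on the tested probe sets without the channel members. Cluster 1 held controls 1 and 2, all 3 arrays at 12 hours, array 3 at 1 day and array 3 at 3 days. The remaining 11, among them controls 3 to 6 and the 5 days arrays, made up cluster 2. Arrays of 1 group correlated with a median r of 0.956 inside a cluster and 0.815 across clusters. Between 5 days and 12 hours, time and cluster cannot be told apart, and the called results are given below with the clusters as a block or within a cluster too. Of 12 fibroblast, meningeal and vascular markers, 2 were measured, and their summed signal was 3562.4 to 9282.7 in cluster 1 and 491.4 to 935.3 in cluster 2. That separation rests on Igf2, with 3282.5 to 8743.8 and 211.2 to 645.3, while the other, Pdgfrb, overlapped with 261 to 590.3 and 225.7 to 484.5. By group the sum was 644.1 to 8633.3 in controls, 3562.4 to 3748.6 at 12 hours, 871 to 7825.3 at 1 day, 854.1 to 9282.7 at 3 days and 491.4 to 692.6 at 5 days. For neurons 10 of 17 markers were measured, with sums of 3642 to 6287.6 in controls, 3499 to 3703.7 at 12 hours, 5064 to 5347.2 at 1 day, 4018.5 to 5935.5 at 3 days and 4977.4 to 5289.8 at 5 days. By cluster these sums overlapped, with 3499 to 5088 in cluster 1 and 4759.3 to 6287.6 in cluster 2. They rest largely on Eno2, with 2122.9 to 3833.6 over all arrays, and so say little about the other neuronal markers. Of the single neuronal markers Map2 alone did not overlap, with 31.1 to 74 and 241.1 to 631.9. For astrocytes 8 of 13 were measured, Gfap and Aqp4 not among them, with sums of 24072.3 to 38020.9 in controls, 38558.2 to 39896.6 at 12 hours, 33637.8 to 36274.2 at 1 day, 25857.4 to 33324.8 at 3 days and 41664.5 to 42339.6 at 5 days. By cluster these sums also overlapped, with 33324.8 to 39896.6 and 24072.3 to 42339.6. They rest largely on Vim, with 8770.4 to 18831.2 over all arrays, and Glul, with 4981.2 to 12630.1. Single astrocyte markers did split, as S100b had 19.7 to 401.2 in cluster 1 and 528.6 to 1209 in cluster 2. Slc1a3 had 259.8 to 654.8 and 1556.2 to 4874.2, and Mt3 91.9 to 474.3 and 694.5 to 4629.4. Gja1 went the other way with 4269.5 to 11591.7 and 810.6 to 3116.5, and Slc1a2, Glul, Vim and Apoe overlapped. The only measured microglial marker, Itgam, had 22.3 to 77 over all arrays, and of the 5 measured oligodendrocyte markers Sox10 had 2.9 to 11.9, Mbp 28 to 139.7, Mog 38.9 to 179.1, Cnp 229.9 to 817.8 and Mag 283.2 to 524.5. Of 3 oligodendrocyte precursor markers 1 was measured, Pdgfra, with 808.3 to 1148.5 in cluster 1 and 136.6 to 830.1 in cluster 2. By group Pdgfra had 136.6 to 1063.7 in controls, 895.4 to 951.1 at 12 hours and 358.7 to 1148.5 at 1 day. It had 261.3 to 909.4 at 3 days and 441.9 to 830.1 at 5 days. No measured marker lay at or under the floor on every array. The part of other cells in the results below was not tested, and in such bulk RNA fewer cells of a type and less RNA per cell cannot be told apart.

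Against control, no channel probe set was called at any of the 4 times. At 12 hours 0 of 52 were called, where 1.66% of all tested probe sets were, and at 1 day 0 of 52 with 0.292% of all. At 3 days, at 5 days and for the mean of the 4 times, 0 of 52 channel probe sets and 0% of all were called. The F-test over the 5 groups called 0 channel probe sets and 1.66% of all. At an unadjusted p under 0.05 the channel counts were 14 at 12 hours, 7 at 1 day, 1 at 3 days, 5 at 5 days, 6 for the mean and 12 in the F-test. As shares these were 26.9%, 13.5%, 1.92%, 9.62%, 11.5% and 23.1% of the channels. The shares of all probe sets at that p were 29.3%, 11.7%, 4.58%, 9.15%, 7.5% and 25.1%. Channel shares and background differ by only a few probe sets each time, and these differences were not tested. Between 5 days and 12 hours 6 of 52 channel probe sets, or 11.5%, were called, against 16.5% of all. Of these, 5 were higher at 5 days, which is 9.62% against 8.96% of all, and 1 was lower, which is 1.92% against 7.5% of all. At an unadjusted p under 0.05 the channels gave 9, or 17.3%, where the background was 31.9%. The median fold of the channels from 12 hours to 5 days was 0.17, against 0.01 over all, with 32.7% of channels and 49.8% of all below 0. After quantile normalization the medians were 0.03 and -0.13, and after median centring 0.04 and -0.12.

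**Figure D1:**
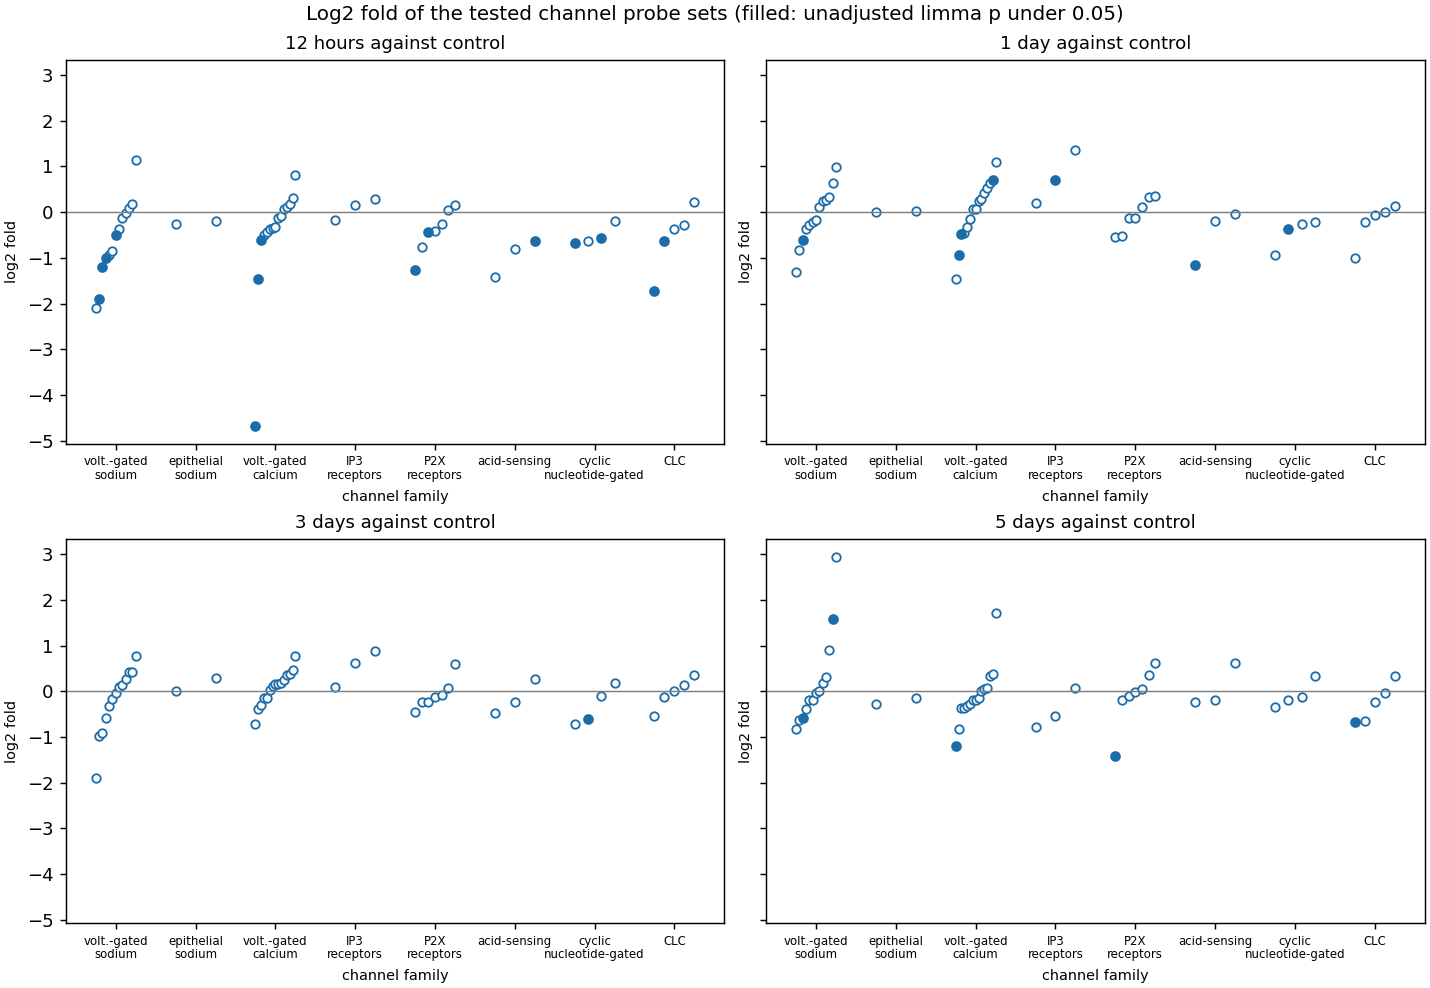
Each panel plots the log2 fold of 1 exposure time against the 6 controls for the 52 tested channel probe sets, grouped by family on the horizontal axis, with filled points where limma's unadjusted p was under 0.05. At 12 hours all 14 filled points lie below 0, at 3 days 1 point is filled, and none of the folds passed the adjusted threshold.

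The plot of folds by family shows how the families lay against control. At 12 hours 10 of 13 voltage-gated sodium, 10 of 15 voltage-gated calcium, 5 of 7 P2X, 4 of 5 CLC and all 3 acid-sensing and 4 cyclic nucleotide-gated probe sets had a fold below 0, and 1 of 3 IP3 receptor probe sets did. At 1 day the 3 IP3 receptor probe sets, all of Itpr1, had folds of 0.19 to 1.36, and the calcium channels had a median of 0.07. At 3 days the median over the channels was 0.02, the same as over all tested probe sets at this precision. At 5 days it was -0.17 against -0.14 over all.

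The probe sets called between 5 days and 12 hours belonged to 5 genes. Scn7a, Cacna2d1, Clcn4 and Cacna1d had higher signals at 5 days, and Cacna1c had lower ones. With the 2 clusters as a block 0 channel probe sets and 0% of all were called, and the folds of these 6 shrank in size. Without controls 1 and 2, 5 of the 6 were called again and Cacna1d was not. The folds between 5 days and 12 hours use no control array, so this changed only the estimated spread. It does not part time from cluster. Leaving out any array at 12 hours, or array 2 or 3 at 5 days, left 0 called. The count was 1 without array 1 at 5 days or array 2 at 1 day, and 2 without control 3, array 1 at 1 day, or array 1 or 2 at 3 days. The calls over all tested probe sets moved as well, from 1 to 215 with 1 array left out, in place of 169.

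Promoters are shown for the 4 genes among them whose 12 hours and 5 days arrays were furthest apart, 3 of them higher and Cacna1c lower at 5 days. Each is the RefSeq sequence of build GRCr8, from 250 bases before to 50 after the gene's start, 5′ to 3′ on the gene's own strand. Entries were found for 36 of the 42 genes, and for Cacna2d1 the first of 3 listed starts is printed. Capitals mark matches, on either strand, to GGGCGG (the GC box), TATAAA (the TATA box), CCAAT (the CCAAT box) and CACGTG (an E-box).
Cacna2d1 chr4:20330098-20330397 (-): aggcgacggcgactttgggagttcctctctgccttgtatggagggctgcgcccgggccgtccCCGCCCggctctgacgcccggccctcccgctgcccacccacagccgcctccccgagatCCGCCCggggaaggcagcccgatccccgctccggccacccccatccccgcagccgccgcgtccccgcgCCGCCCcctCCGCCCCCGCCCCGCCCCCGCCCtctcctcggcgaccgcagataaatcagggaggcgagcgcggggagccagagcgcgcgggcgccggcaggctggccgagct
Scn7a chr3:71846235-71846534 (-): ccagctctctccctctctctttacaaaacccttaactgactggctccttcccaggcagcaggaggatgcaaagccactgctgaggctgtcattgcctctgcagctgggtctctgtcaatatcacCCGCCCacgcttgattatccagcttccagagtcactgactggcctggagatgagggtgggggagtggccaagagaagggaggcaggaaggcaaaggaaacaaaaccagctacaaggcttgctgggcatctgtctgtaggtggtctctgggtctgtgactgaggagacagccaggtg
Clcn4 chrX:27290689-27290988 (+): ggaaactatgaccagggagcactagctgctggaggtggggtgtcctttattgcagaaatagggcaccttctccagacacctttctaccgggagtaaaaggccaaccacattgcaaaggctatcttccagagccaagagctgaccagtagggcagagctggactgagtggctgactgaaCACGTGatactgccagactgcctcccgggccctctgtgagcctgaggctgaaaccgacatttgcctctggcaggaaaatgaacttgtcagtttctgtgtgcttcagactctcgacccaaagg
Cacna1c chr4:154051699-154051998 (-): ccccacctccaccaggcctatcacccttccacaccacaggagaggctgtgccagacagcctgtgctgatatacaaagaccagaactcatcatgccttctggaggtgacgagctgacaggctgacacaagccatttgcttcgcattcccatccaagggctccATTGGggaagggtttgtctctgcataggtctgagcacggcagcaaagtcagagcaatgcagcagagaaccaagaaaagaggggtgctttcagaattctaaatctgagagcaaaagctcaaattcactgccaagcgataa

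The Cacna2d1 promoter is 78.3% G and C, with 41 CpG pairs and 7 GC-box matches, some of which overlap. The medians over 33469 promoters of this length were 51.7% and 7 CpG pairs, with quartiles of 3 and 19. Scn7a had 56.0%, 2 CpG pairs and 1 GC-box match. Clcn4 had 53.7%, 5 CpG pairs and 1 E-box match, and Cacna1c 51.7%, 4 CpG pairs and 1 CCAAT match on the opposite strand. The GC box was found in 33.1% of all promoters, the TATA box in 14.2%, the CCAAT box in 37.5% and the E-box in 6.4%. None of the 4 motifs occurred in all of these promoters. The GC box was shared by Cacna2d1 and Scn7a, and Clcn4 and Cacna1c shared no motif with another of them. A match is a string of letters and no evidence of binding.

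Scn7a encodes Nax, a relative of the voltage-gated sodium channels that senses the sodium level outside the cell and is found in glia. Its probe set S75991_at had signals of 186.8, 262.4, 343.1, 1803.2, 1737.7 and 2039.3 in controls 1 to 6. At 12 hours it had 186.8, 183.3 and 187.4, and at 5 days 1532.5, 2697.3 and 2128.9. All arrays at 5 days lay above all arrays at 12 hours, and the controls, from 186.8 to 2039.3, reached into both ranges. At 1 day the signals were 501.5, 545.1 and 216.7, and at 3 days 468.1, 451.9 and 206.4. Array 3, the cluster 1 array, was the lowest at both times. The fold from 12 hours to 5 days was 3.47 ± 0.82 (SE, n = 3 and 3; limma adjusted p = 0.0259), and 1.64 ± 0.67 with the clusters as a block (adjusted p = 0.289).

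The other Scn7a probe set, rc_AA925248_at, had a like pattern. Controls 1 to 3 had 85.7, 24.2 and 94.5, and controls 4 to 6 had 2395.4, 2105.6 and 2329.9. Control 3 lay with the low controls here although it belongs to cluster 2. Signals were 90.1, 90.3 and 75.9 at 12 hours, 233.6, 241 and 56.4 at 1 day, 272.2, 305.7 and 7.1 at 3 days, and 2527, 3077.3 and 2820.7 at 5 days. The fold between 5 days and 12 hours was 5.04 ± 1.64 (limma adjusted p = 0.0474), and 1.10 ± 1.22 with the block (adjusted p = 0.715). Over the 18 arrays the 2 probe sets correlated with r = 0.942 in log2 signal, the highest of 18 pairs of tested probe sets of 1 gene. Against control, the folds of S75991_at were -1.89 ± 0.71 at 12 hours (adjusted p = 0.114) and 1.58 ± 0.71 at 5 days (adjusted p = 0.503), and with the block -0.67 and 0.97.

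Cacna2d1 encodes alpha2delta-1, an auxiliary subunit of voltage-gated calcium channels and the binding site of gabapentin. Its signals in controls 1 to 6 were 19.3, 6, 956.6, 1426.5, 1475.8 and 1374.9. At 12 hours they were 5.5, 4.3 and 9.7, all under the floor, and at 5 days 905.3, 965.9 and 980.7. At 1 day they were 365, 282.7 and 4.3, and at 3 days 502.2, 810.3 and 13.8. The 7 cluster 1 arrays lay between 4.3 and 19.3 and the 11 cluster 2 arrays between 282.7 and 1475.8, with no overlap, so this probe set passed the filter through cluster 2 arrays alone. The fold between 5 days and 12 hours was 6.39 ± 2.0 (limma adjusted p = 0.0448). As the 12 hours arrays were at the floor, the signal at 5 days was at least 84.1-fold higher. The block left a fold of 0.58 ± 0.41 (adjusted p = 0.544).

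Cacna1c encodes the pore subunit of the L-type calcium channel Cav1.2, which astrocytes in culture carry. The probe set M59786_at had 719.6, 792.4, 398.8, 203.8, 132.3 and 228.8 in controls 1 to 6. It had 549.3, 547.7 and 660.7 at 12 hours and 179.4, 111.9 and 153.5 at 5 days, with no overlap. Signals were 371.2, 286.3 and 1053.7 at 1 day and 334.6, 324.5 and 764.9 at 3 days, highest on the cluster 1 array each time. The fold was -2.0 ± 0.63 (limma adjusted p = 0.0448), or a 4.01-fold lower signal at 5 days, and -0.40 ± 0.39 with the block (adjusted p = 0.674). The other tested probe sets of Cacna1c, M89924cds_s_at and U31815_s_at, correlated with it at r = 0.733 and 0.612. They were not called, with folds of -0.39 and -0.59 in the same comparison. The block turned both directions, to 2.07 ± 0.55 (adjusted p = 0.150) and 0.44 ± 0.72 (adjusted p = 0.821), so the probe sets of the gene did not keep 1 direction. M89924cds_s_at exceeded 44.9 on 3 arrays only, control 2 with 142.3, array 3 at 1 day with 87 and array 3 at 3 days with 133.3, all of cluster 1. The 12 hours arrays of the same cluster had 14.2 to 17.5.

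Cacna1d encodes the pore subunit of Cav1.3, the other widespread L-type channel of brain. Its tested probe set D38101_s_at had 44.2, 55.9, 50.6, 57.5, 42.2 and 68 in controls 1 to 6 and 21.9, 27.9 and 8.5 at 12 hours. All 12 hours arrays lay below all controls. It had 39.8, 45.3 and 11.6 at 1 day, 61.6, 53 and 74.9 at 3 days and 53, 38.6 and 50.7 at 5 days. The fold between 5 days and 12 hours was 1.30 ± 0.43 (limma adjusted p = 0.0496), and 0.88 ± 0.51 with the block (adjusted p = 0.449). Against control it was -1.46 ± 0.37 at 12 hours (adjusted p = 0.0596) and -0.93 ± 0.37 at 1 day (adjusted p = 0.382). Controls 1 and 2 lay among the other controls, so this fold did not follow the clusters in the controls as those above did. The other 4 probe sets of the gene were too dim to be tested.

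Clcn4 encodes CLC-4, a chloride and proton exchanger of endosomes. It had 135.6, 156.4, 431.9, 380, 558.9 and 664 in controls 1 to 6, and at 12 hours its 3 arrays ran from 91.9 to 107.1, below every control. It had 212.1, 195.3 and 108.9 at 1 day, 535, 519.9 and 128.2 at 3 days, and 361.6, 446.4 and 448.5 at 5 days. Cluster 1 and cluster 2 arrays did not overlap. The fold between 5 days and 12 hours was 2.06 ± 0.60 (limma adjusted p = 0.0416), a 4.18-fold higher signal, and 0.44 ± 0.31 with the block (adjusted p = 0.529). Against control it was -1.73 ± 0.52 at 12 hours (adjusted p = 0.0963).

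**Figure D2:**
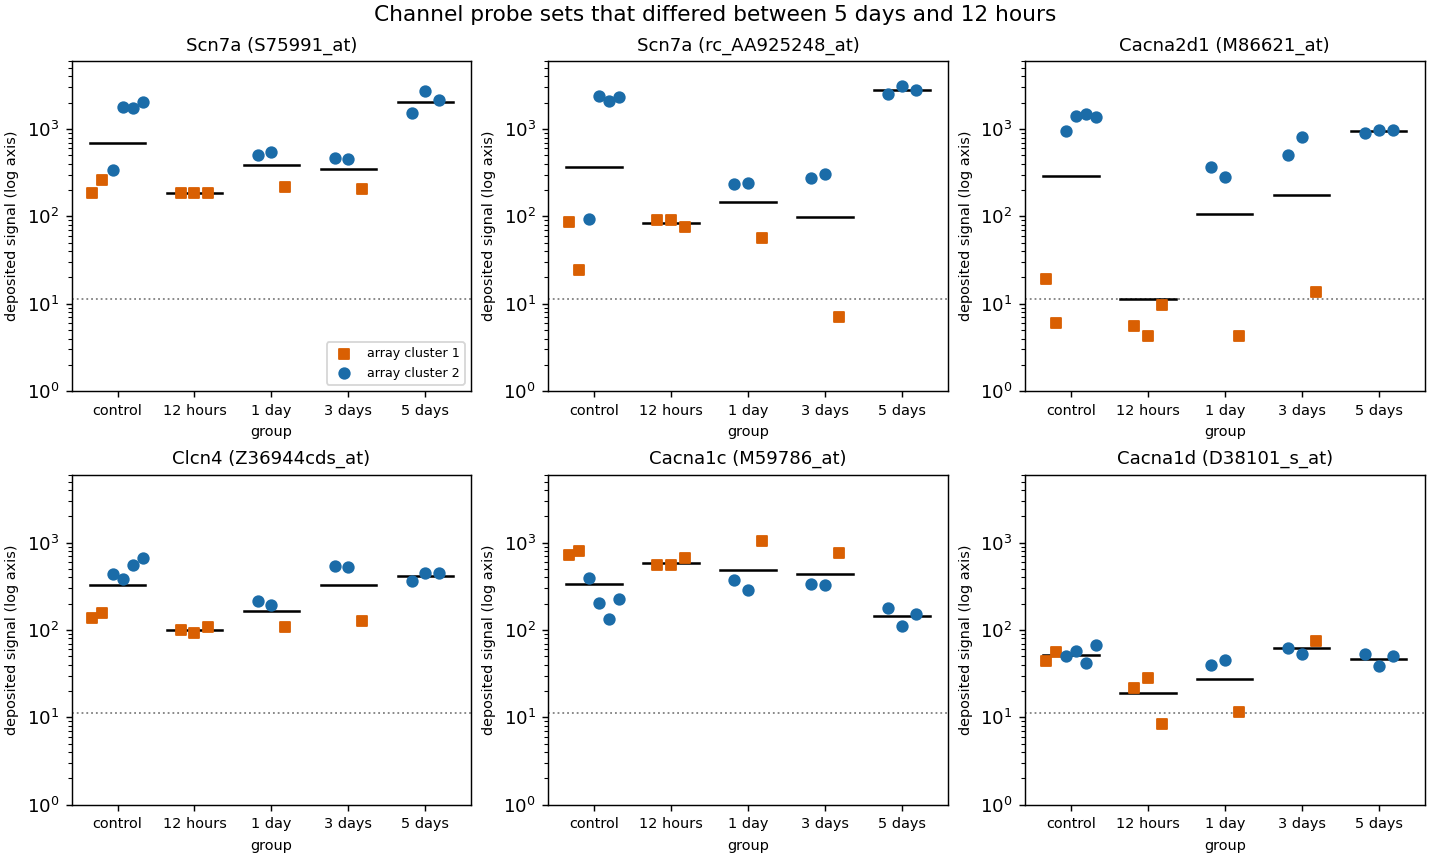
Deposited signal (log axis) of the 6 channel probe sets called between 5 days and 12 hours, in controls and at the 4 times, with 1 point per array, squares for cluster 1, circles for cluster 2, bars at group means of log2 signal and a dotted line at the floor of 11.3. For Cacna2d1 every square lies at or under 19.3 and every circle at or above 282.7, while the Cacna1d squares and circles of the controls mix.

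The plot of the called probe sets by array shows that the spread of the controls was about as wide as the gap between 5 days and 12 hours for Scn7a, Cacna2d1, Clcn4 and Cacna1c. Of the 52 channel probe sets 9, or 17.3%, had no overlap between the 2 clusters, against 14.9% of all tested. They were Cacna1g, Clcn3, Cacna1c M59786_at, Cacnb2, Cacna2d1, both of Scn7a, Asic2 U53211_at and Clcn4. The clusters were defined on the tested probe sets outside the channels, so the share over all is not independent of them. Cacna2d1 and Asic2 U53211_at also passed the filter through cluster 2 arrays alone, which favours a lack of overlap. Between 12 hours and 5 days 20 of the 52, or 38.5%, had no overlap, against 53.7% of all. Between controls 1 and 2 and controls 3 to 6 the count was 17, or 32.7%, against 38.8% of all.

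The split of the controls was then set beside the difference between 5 days and 12 hours, a description added after the values were seen. These differences share no array, but both run from cluster 1 to cluster 2. Controls 3 to 6 exceeded controls 1 and 2 by 6.45 in mean log2 signal for Cacna2d1, and 5 days exceeded 12 hours by 6.39. Both are lower bounds, as control 2 and all 12 hours arrays were under the floor, so their closeness is not read. The paired values were 4.49 and 5.04 for Scn7a rc_AA925248_at, 2.46 and 3.47 for Scn7a S75991_at, 1.77 and 2.06 for Clcn4, and -1.76 and -2.0 for Cacna1c M59786_at. Asic2 U53211_at, not called, had 2.26 and 2.04. Cacna1d D38101_s_at stood apart with 0.11 and 1.30. Across the 52 probe sets the correlation of both differences was 0.874, and 0.44 without the 5 largest, where all 1027 gave 0.877. Signs were the same for 37 of the 52, or 71.2%, and for 79.4% of all tested.

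**Figure D3:**
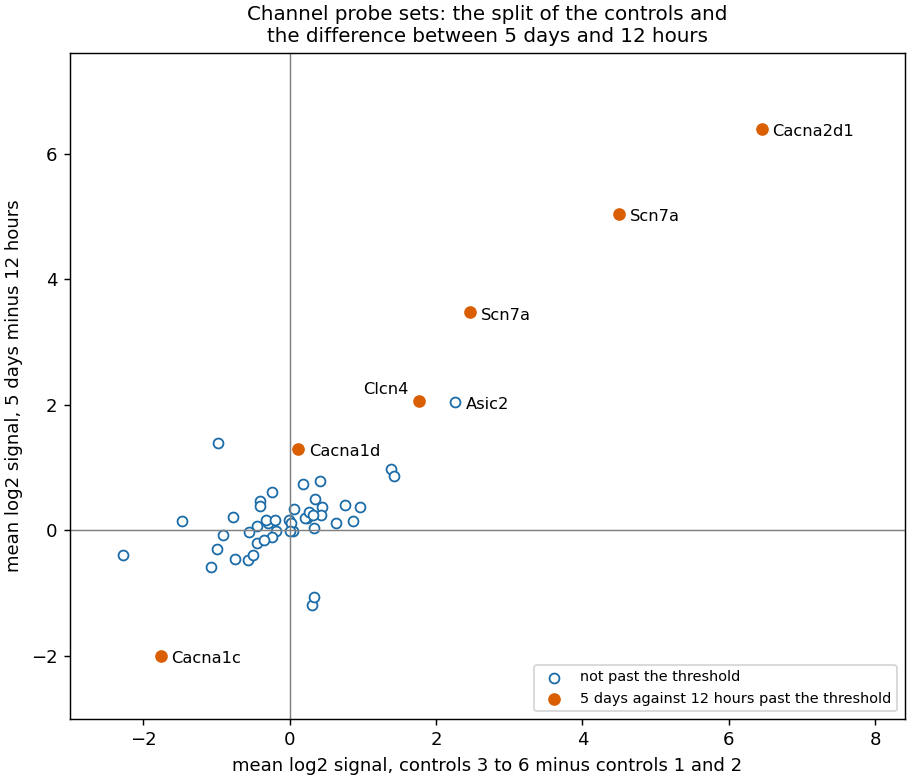
For each of the 52 tested channel probe sets the mean log2 signal of controls 3 to 6 minus controls 1 and 2 (horizontal) is plotted against 5 days minus 12 hours (vertical), with filled points for the 6 called in the latter. Cacna2d1 lies at 6.45 and 6.39, both lower bounds set by the floor, Cacna1c at -1.76 and -2.0, and Cacna1d at 0.11 and 1.30, while most points lie near the origin.

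At 12 hours against control the channels leaned low. Of 52 folds 39, or 75%, were below 0, against 60% of all, and the median was -0.36 against -0.18. Other scalings moved the channel and overall values together. The channel and overall medians were -0.14 and -0.02 after quantile normalization, -0.19 and -0.01 after median centring and -0.17 and -0.04 after cyclic loess. The shares below 0 were then 61.5%, 65.4% and 63.5% of the channels and 51.0%, 50.4% and 52.3% of all. All 14 channel probe sets at an unadjusted p under 0.05 were lower at 12 hours, 26.9% against 18.3% of all, and 0 were higher against 11% of all. Of the 52, 9 or 17.3% had no overlap with the controls, against 15% of all.

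Besides Cacna1d, Clcn4, Cacna2d1 and Scn7a S75991_at, those 14 were Scn3a, Scn9a U79568_s_at, Scn10a, Cacng1, P2rx1, P2rx2 AF020756_s_at, Asic2 Y14635_s_at, Clcn5 Z56277_i_at and both tested probe sets of Cngb1. Cngb1 encodes the beta subunit of cyclic nucleotide-gated channels. Its probe set AJ224680_g_at had 790.3, 774.1, 1170.7, 1011.8, 1030.3 and 1043.1 in controls 1 to 6 and 610.7, 678.5 and 659.8 at 12 hours. All 12 hours arrays lay below all controls. It had 722, 697.9 and 812.4 at 1 day, 855.2, 925.8 and 890.7 at 3 days and 794.6, 830.2 and 912 at 5 days. The fold at 12 hours was -0.56 ± 0.16 (limma adjusted p = 0.0781), and that of AF015728_s_at was -0.67 ± 0.21 (adjusted p = 0.0973).

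With the clusters as a block the 12 hours folds were -0.67 ± 0.53 for Scn7a S75991_at (limma adjusted p = 0.472), -0.81 ± 0.33 for Cacna2d1 (0.195), -0.64 ± 0.25 for Clcn4 (0.161) and -0.29 ± 0.19 for Asic2 Y14635_s_at (0.394), all smaller in size than without it. For Cngb1 they were -0.45 ± 0.17 at AJ224680_g_at (0.161) and -0.73 ± 0.23 at AF015728_s_at (0.133), for Cacna1d -1.17 ± 0.41 (0.145) and for P2rx1 -1.75 ± 0.45 (0.0944). Within cluster 1 alone the fold of AJ224680_g_at was -0.27.

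Without controls 1 and 2, whose source label differs, 12 of the 52 channel probe sets were called at 12 hours, 23.1% against 31.3% of all. Of these 11 fell, 21.2% against 18.1% of all, and 1 rose, 1.92% against 13.1% of all. The fold of Cacna2d1 was then -6.83, of Clcn4 -2.32, of Cngb1 AJ224680_g_at -0.71, of Scn7a S75991_at -2.71 and of Asic2 Y14635_s_at -0.89, with limma adjusted p-values of 0.00206 to 0.00382. Scn9a U79568_s_at, Cacna1d, P2rx2 AF020756_s_at, Asic2 U53211_at, Cngb1 AF015728_s_at and Scn7a rc_AA925248_at were also called as lower, and Cacna1c M59786_at as higher with a fold of 1.39 (adjusted p = 0.0367). Here all 12 hours arrays are of cluster 1 and all controls of cluster 2, so time and cluster cannot be told apart. Cacna2d1 and Asic2 U53211_at passed the filter through cluster 2 arrays alone, so the filter itself favours their calls as lower. Leaving out control 1 alone gave 8 channel calls, and leaving out control 2 or array 3 at 1 day gave 1 each. Over all tested probe sets, the fits with 1 array left out gave 1 to 211 calls at 12 hours. Calls outside the channels thus moved as well, and these channel counts are not read as particular to the channels.

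Within cluster 1, 12 hours against controls 1 and 2 gave 0 channel calls and 0% of all. Over all arrays with the clusters as a block 1 channel probe set was called, where 0.292% of all were, and 0.195% as lower. It was Z56277_i_at of Clcn5, whose protein is an endosomal chloride and proton exchanger of the kidney. It had 98.3, 113.3, 83.3, 65.6, 52.4 and 93.9 in controls 1 to 6 and 51.3, 56.5 and 49.9 at 12 hours. It had 72.9, 72.2 and 104.9 at 1 day, 67.4, 54.6 and 112.7 at 3 days and 45, 57.1 and 53.6 at 5 days. The 12 hours arrays lay below controls 1 and 2, and reached the range of controls 3 to 6. The blocked fold was -1.06 ± 0.21 (limma adjusted p = 0.0475), against -0.64 ± 0.26 without the block (adjusted p = 0.135). The other Clcn5 probe set, D50497_s_at, correlated with it at r = 0.383.

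At 1 day the clusters as a block gave 2 channel calls, Cacna2d1 and Clcn4, or 3.85% against 2.92% of all. Both were lower, and 1.75% of all were called as lower. The fold of Cacna2d1 was -1.47 ± 0.29 (limma adjusted p = 0.0172) and that of Clcn4 -1.0 ± 0.21 (adjusted p = 0.0181). Both folds are the same size without the block, as controls and 1 day arrays divide between the clusters in the same ratio, but their SEs are then 1.73 and 0.52. The F-test with the block called 3 channel probe sets, Scn2a (adjusted p = 0.0195), Cacna1c M89924cds_s_at (0.0301) and Clcn5 Z56277_i_at (0.0398), where 2.53% of all were called.

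Among cluster 2 arrays alone, arrays 1 and 2 at 1 day were set against controls 3 to 6. There 6 of the 52 channel probe sets were called, 11.5% against 12% of all. All 6 fell, against 6.52% of all called as lower, and 0 rose, against 5.45% of all. The folds were -2.01 for Cacna2d1 (limma adjusted p = 0.00114), -1.29 for Clcn4 (0.00815), -1.84 for Cnga3 AF031943_s_at (0.0121), -0.78 for Scn2a (0.0212), -0.79 for Cacnb3 (0.0264) and -0.58 for Cngb1 AJ224680_g_at (0.0404). In cluster 1, with the lone array 3 at 1 day against controls 1 and 2 and its spread assumed like that of the other groups, 0 channel probe sets and 0% of all were called. There the folds were -0.39 for Cacna2d1, -0.42 for Clcn4, -0.31 for Scn2a, 0.12 for Cacnb3, 0.05 for Cngb1 AJ224680_g_at and 0.84 for Cnga3 AF031943_s_at. The last 3 have the sign opposite to that in cluster 2, and this difference was not tested.

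Scn2a encodes the pore subunit of Nav1.2, a sodium channel of neurons. Its signals were 87.6, 124.5, 90, 64.9, 78.6 and 75.2 in controls 1 to 6, and 42.1, 47.6 and 84.5 at 1 day. Arrays 1 and 2 at 1 day lay below all controls and array 3 among them. It had 62.3, 77.5 and 58.6 at 12 hours, 106, 104.3 and 133.9 at 3 days and 58.9, 51.4 and 60.9 at 5 days. Signals at 3 days were above those of the other 3 times. Without array 3 at 1 day, Scn2a was called over all arrays with a fold of -0.92 (limma adjusted p = 0.0456).

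Cacnb3 encodes a cytoplasmic beta subunit that carries calcium channels to the membrane. It had 444, 308, 343.6, 383.7, 402.7 and 406 in controls 1 to 6 and 185, 265.9 and 402.9 at 1 day, with arrays 1 and 2 below every control. Over the other times its signals ran from 340.2 to 517.3. Cnga3 encodes an alpha subunit of the cyclic nucleotide-gated channel of cones. AF031943_s_at had 43.1, 15.5, 67.9, 67, 66.6 and 68.1 in controls 1 to 6, 55.4, 21 and 27 at 12 hours and 16.5, 21.6 and 46.3 at 1 day. It had 16.8, 49.8 and 31.1 at 3 days and 72.2, 66.7 and 49.7 at 5 days. Only 10 of its 18 signals passed 44.9, so the probe set was dim on many arrays.

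**Figure D4:**
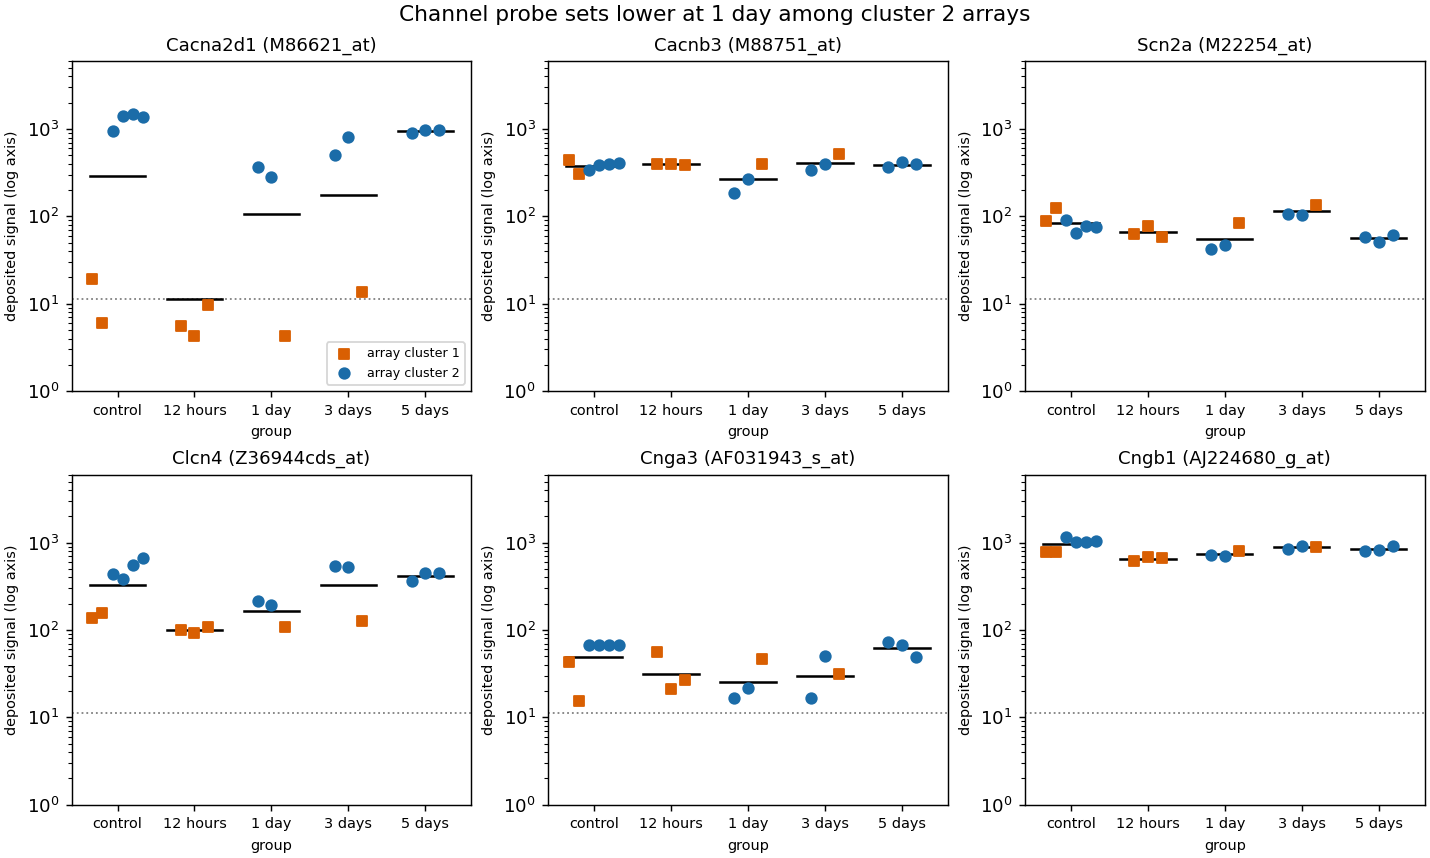
Deposited signal (log axis) of the 6 channel probe sets called as lower at 1 day among cluster 2 arrays, in controls and at the 4 times, with 1 point per array, squares for cluster 1, circles for cluster 2, bars at group means of log2 signal and a dotted line at the floor. The 2 circles at 1 day lie below the 4 circles of the controls in every panel.

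In the plot of probe sets lower at 1 day, the cluster 1 array of that time lies within or close to the range of controls 1 and 2 for Scn2a, Cacnb3, Cngb1 and Cnga3. Without controls 1 and 2, 2 channel probe sets were called at 1 day over all arrays, 3.85% against 5.74% of all. They were Clcn4 with a fold of -1.59 (limma adjusted p = 0.0447) and Cngb1 AJ224680_g_at with -0.52 (0.0451). No channel probe set had 1 day arrays that were all outside the control range, where 1.75% of all tested did.

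At 3 days no channel probe set was called, with the block (0% of all), within cluster 2 (0.584% of all) or within cluster 1 (0.0974% of all), where array 3 is the lone array of that time and its spread was assumed like that of the other groups. Again none had arrays that were all outside the control range (1.56% of all). The probe set at an unadjusted p under 0.05 was Cngb1 AF015728_s_at, with a fold of -0.60 ± 0.21 (limma adjusted p = 0.877). Itpr1, the IP3 receptor that releases calcium from the endoplasmic reticulum, had a fold of 0.62 at its probe set J05510_at (adjusted p = 0.947). Its signals were 270.2, 325.4 and 370 at 3 days, 230.4, 224.7 and 256.2 at 1 day, 177.6, 168.2 and 212 at 12 hours and 145.3, 121.6 and 160.6 at 5 days. Neighbouring times in this order did not overlap at this probe set. Controls 1 to 6 had 160.2, 424.3, 293.1, 147, 149.3 and 182.2, so all arrays but 2 at 5 days lay within the range of the controls. The other tested Itpr1 probe sets, M64698_s_at and U38653_s_at, correlated with J05510_at at r = 0.30 and 0.413. At 12 hours their folds were 0.17 and 0.29 where J05510_at had -0.17, so the order is given for J05510_at alone.

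At 5 days against control the block and cluster 2 alone each gave 0 channel calls and 0% of all. For the mean of the 4 times the block also gave 0 and 0% of all. At an unadjusted p under 0.05 stood Scn7a S75991_at, Scn2a, Cacna1c M59786_at, Clcn5 Z56277_i_at and P2rx1. P2rx1 encodes an ATP-gated channel known from smooth muscle and platelets. It had 49.3, 54.2, 62.4, 19.4, 51 and 43.8 in controls 1 to 6, 22.4, 18.9 and 14.8 at 12 hours and 13.3, 15.3 and 22.3 at 5 days. Signals were 34.8, 71.9 and 68 at 1 day and 15.5, 27.8 and 75.4 at 3 days. At 12 hours and 5 days all arrays lay below 5 of the 6 controls, on either side of control 4, with folds of -1.25 ± 0.44 and -1.41 ± 0.44 (limma adjusted p = 0.111 and 0.412). With the block they were -1.75 and -1.16 (adjusted p = 0.0944 and 0.378). These signals lie near the floor, where folds are understated. Of the channels 2 had 5 days arrays all outside the control range, against 5.36% of all. After cyclic loess the channel and overall medians at 5 days were 0.05 and 0.01, and 48.1% of the channels were below 0 in place of 67.3%.

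Without controls 1 and 2 the mean of the 4 times gave 3 channel calls, all lower, in Cngb1 AJ224680_g_at, Asic2 Y14635_s_at and Clcn4, where 5.26% of all were called. The F-test without them called 11 channel probe sets, 21.2% against 21.3% of all. They were both of Scn7a, Scn2a, Scn9a U79568_s_at, Cacna1c M59786_at, Cacna1d, Cacna2d1, Itpr1 J05510_at, Asic2 Y14635_s_at, Cngb1 AJ224680_g_at and Clcn4, with limma adjusted p-values from 0.00573 for Scn7a S75991_at to 0.0455 for Cacna1d.

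The brightest probe set of each remaining family was named by rule. P2rx2 encodes an ATP-gated channel of neurons, and AF020756_s_at had 299.8, 355.3 and 328.2 at 12 hours against a control range of 336.7 to 614 with a median of 440.4. Its fold was -0.44 ± 0.18 (limma adjusted p = 0.138), and -0.25 ± 0.18 with the block (adjusted p = 0.438). Later signals were 456.8 to 496.2 at 1 day, 320.2 to 413.6 at 3 days and 388.1 to 523.1 at 5 days. Asic2 encodes an acid-sensing channel subunit, and Y14635_s_at had 139.5, 134.4 and 141.1 at 12 hours, below all controls, which ran from 146 to 275.5 with a median of 241.2. It had 166 to 205 at 1 day, 159.9 to 207.2 at 3 days and 145.2 to 238.1 at 5 days. Its other probe set, U53211_at, had 14.7 to 30.3 on cluster 1 arrays and 80.8 to 188.4 on cluster 2 arrays. It thus passed the filter through cluster 2 arrays alone.

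Scnn1a, the alpha subunit of the epithelial sodium channel, had 127.9 to 218.9 in controls and 116.8 to 220.9 over the 4 times. Cacna1a, the pore of P/Q-type calcium channels, had 623.5 to 809.7 at rc_AI229031_s_at in controls and 502 to 989.7 over the times. Clcn3, an endosomal exchanger close to CLC-4, had 748 to 1268.6 in controls, 755.9 to 800.9 at 12 hours, 740.2 to 1023.4 at 1 day, 779.8 to 1300.8 at 3 days and 823 to 1035.4 at 5 days. For each of these 3 the exposed arrays overlapped the controls at every time. None of the 3 was called in any comparison that was fitted, under any of the alternatives tried.

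The 21 untested probe sets were dim. For 5 genes no probe set was tested, namely Scn1a with signals of 0.6 to 21.9, Scnn1b with 10.2 to 18, Cacna1s with 5.9 to 26.1, P2rx7 with 3.3 to 41.2 and Cnga4 with 6.8 to 54.8. Scn1a and P2rx7 encode Nav1.1 of neurons and the ATP-gated channel of microglia and macrophages. For 12 genes with more than 1 tested probe set, 6 of 18 pairs correlated above 0.5 over the arrays and 3 below 0, with a median of 0.382. The pairs below 0 belonged to Cacna1b (-0.66), Scn8a (-0.31) and Scn4a (-0.15), so values of 1 probe set of these genes do not stand for the gene.

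Ion pumps and exchangers, which keep the gradients that these channels run down, were described by list. Of 24 genes 11 were measured on 21 probe sets, of which 16 were tested. Against control 0 were called at any time, where 1.66% of all were at 12 hours, 0.292% at 1 day and 0% later. Between 5 days and 12 hours 5 of the 16 were called, or 31.2%, against 16.5% of all. Between 5 days and 12 hours both probe sets of Atp1b2, the glial beta subunit of the sodium pump, rose, with folds of 3.77 ± 0.86 and 2.19 ± 0.38 (limma adjusted p = 0.0234 and 0.00775). Atp1b3, another beta subunit, fell by 0.78, Atp2b1, a calcium pump of the plasma membrane, by 0.79, and Atp2a2, that of the endoplasmic reticulum, by 0.67 (adjusted p = 0.0446, 0.0409 and 0.0453). With the clusters as a block none of the 5 was called, with folds of 2.31 and 1.64 for Atp1b2, -0.67 for Atp1b3, -0.48 for Atp2b1 and -0.81 for Atp2a2 (adjusted p = 0.150 to 0.387). The list median was -0.41 against 0.01 over all. Of the calcium-binding and calcium-signal list 17 of 32 genes were measured on 27 probe sets, of which 20 were tested. Camk4, with 2.4 to 10.7 at its brightest probe set, was under the floor on every array, so the tested probe sets do not cover every measured gene. Of the 20, 0 were called against control at any time. Between 5 days and 12 hours Ncs1, a neuronal calcium sensor, fell by 1.66 (adjusted p = 0.0169; with the block -1.01, adjusted p = 0.213), 1 of 20 or 5% against 16.5% of all, and the list median was 0.12. Time and cluster cannot be told apart in these values either.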

How the data were processed

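RNA of 18 samples was hybridised to 1 array each. The authors deposited these as linear intensities (signals), 1 for each probe set. The software, its version and its scaling are not given in the sources used. The values show that arrays were already scaled, so none was scaled again. The 59 control probe sets were left out. Symbols came from the platform annotation (1137 probe sets with 1 symbol, 8 with several, 118 with none), and all 42 channel genes matched the reference gene table with 0 symbols changed.

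The 5 groups were fitted over all arrays by lmFit and eBayes of limma 3.58.1 (R 4.3.3), with 13 residual degrees of freedom and two-sided tests, adjusted by Benjamini-Hochberg over 1027 probe sets. The procedure was tested on simulated data. Clusters of arrays came from average linkage, with 1 minus Pearson's r as the distance. The members, the gene lists and the tests were chosen with earlier results of these data known. Named were members called in any comparison or with the cluster block, the 5 smallest F-test p-values and the brightest probe set of each family. Cnga3 and Cacnb3 were named after their values were seen. Alternatives varied the floor, the filter, the scaling, the variance model, the block and the arrays used. No pair of arrays shared more than 0.681% of its values.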

Additional observations from a re-analysis of the deposited data

Results flagged for a closer look

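Among the 6 controls, 5 of 52 channel probe sets had 1 array far from the others by Dixon's test, where 5% of the groups tested, or 2.6, would be found by chance. Control 2 had 15.5 for Cnga3 AF031943_s_at, with the others at 43.1 to 68.1. It had 47.4 for Cacnb2, with the others at 181.6 to 272.1, and 142.3 for Cacna1c M89924cds_s_at, with the others at 8.5 to 25.8. Control 1 had 20.2 for Scn9a U79568_s_at, with the others at 56.2 to 100.3. Control 4 had 19.4 for P2rx1, with the others at 43.8 to 62.4. Of these 5 values, 4 lie on controls 1 and 2, which carry another source label.

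Effects at 5 days and at 12 hours, both against the same controls, differed by limma's test of the difference for 6 channel probe sets. The differences were 6.39 for Cacna2d1, a lower bound as all 12 hours arrays were under the floor, 5.04 for Scn7a rc_AA925248_at, 3.47 for Scn7a S75991_at, 2.06 for Clcn4, 1.30 for Cacna1d and -2.0 for Cacna1c M59786_at, with adjusted p-values of 0.0259 to 0.0496. Time and cluster cannot be told apart in them.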

How the results depend on the processing

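Without controls 1 and 2 the counts of channel calls were 12 at 12 hours, 2 at 1 day, 3 for the mean of the times and 11 in the F-test. With the 2 clusters as a block they were 1 at 12 hours, 2 at 1 day, 0 between 5 days and 12 hours and 3 in the F-test, and cluster 2 alone gave 6 at 1 day. A floor at the 20th percentile gave 1 at 12 hours (Cacna1d) and 1 in the F-test. No filter gave 1 at 12 hours (Cngb1 AJ224680_g_at) and 1 between 5 days and 12 hours, and quantile normalization gave 1 between 5 days and 12 hours, each time Scn7a S75991_at, with 98 and 94 calls over all probe sets in place of 169. Leaving out 1 array gave 0 to 8 at 12 hours, 0 to 1 at 1 day, 0 to 6 between 5 days and 12 hours, 0 to 4 in the F-test and 0 in the other comparisons. Over all probe sets the same fits gave 1 to 211 at 12 hours, 0 to 26 at 1 day and 1 to 215 between 5 days and 12 hours. They gave 1 to 114 in the F-test, 0 to 3 at 3 days and for the mean, and 0 to 2 at 5 days. The count at 3 days was 0 under all settings tried. The cause was not tested.

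Replicate numbers did not pair the arrays, since in 1 of 10 pairs of groups alone, 1 day and 3 days, did every same-numbered pair correlate above 0.1. With the replicate number as a block the channel counts were 4 at 5 days against control (61 over all probe sets), 2 in the F-test and 4 between 5 days and 12 hours. The 4 at 5 days were Cacna1c M59786_at (fold -2.07), both of Scn7a (5.59 and 3.01) and P2rx1 (-1.73). Replicate numbers 4 to 6 occur only among the controls, so this block takes controls 4 to 6 out of the folds. These 4 folds thus set 5 days against controls 1 to 3 alone. Controls 1 and 2 are of cluster 1 and all 5 days arrays of cluster 2, so the folds do not part time from cluster. For each named probe set the fold with the smallest p among the 4 times against control was recomputed. Where called, the fold between 5 days and 12 hours was recomputed too. Of these 664 values 557 kept their side of the threshold, 85 lost a call and 22 gained one. With an unadjusted p under 0.05 on either side 0 turned sign, while 5 turned sign without one. The turn of Cacna1c M89924cds_s_at under the cluster block, given above, is not among these values, as its fold between 5 days and 12 hours was not called. Only the 6 folds called between 5 days and 12 hours had a call to lose. Of 28 settings, Scn7a S75991_at stayed called in 22, Clcn4 in 18, Cacna1c M59786_at in 14 and Cacna2d1 in 13. Scn7a rc_AA925248_at stayed called in 11 and Cacna1d in 5. Dim signals limit the low members, whose folds are understated.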
